A study of Mus musculus with 12 samples.

Results

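The transcripts described here encode 7 ligands through which a cell presents activating or inhibitory signals to T cells, NK cells and phagocytes: Cd274, Pdcd1lg2, Cd80, Cd86, Cd47, Lgals9 and Pvr. They were taken from the table of normalized counts by gene symbol, 7 of 24454 genes, and each was found once. Their values were compared across 12 libraries of leukemic blasts from spleen (SP) and bone marrow (BM), 3 per genotype and organ, to ask whether the genotype or the organ changed them. Fetal liver cells of wildtype (WT) or STAT3β-deficient (Δβ) mice had been transduced with a retrovirus encoding MLL-AF9 and a Venus reporter and injected into male NSG mice that were 6 to 8 weeks old. Venus+ blasts were sorted from diseased animals and poly-A RNA was sequenced. WT and Δβ blasts therefore both carried MLL-AF9 and differed in the β isoform of STAT3, and SP and BM blasts of a genotype differed in the organ. NSG hosts lack T, B and NK cells but keep myeloid cells. The labels do not say that the 3 replicates of a group came from separate animals, and p-values then measure only the spread between these libraries. Transcripts, not surface proteins, were measured, and in bulk RNA fewer cells of a type and less RNA per cell cannot be told apart.

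PD-L1 (Cd274) and PD-L2 (Pdcd1lg2) bind PD-1 and restrain T cells, while CD80 and CD86 of the same B7 family bind CD28, which activates T cells, and CTLA-4, which restrains them. CD47 binds SIRPα on phagocytes as a signal against engulfment, galectin-9 (Lgals9) binds TIM-3 among other glycoproteins, and the poliovirus receptor CD155 (Pvr) binds the activating receptor DNAM-1 and the inhibitory receptors TIGIT and CD96. On myeloid cells PD-L1 is a well-known target of interferon signaling, and CD80 and CD86 mark maturing dendritic cells and macrophages.

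Cd274 and Pdcd1lg2 are neighbors on the plus strand of chromosome 19, at 29367455 to 29388095 and 29410919 to 29471161, with 22824 bases from the end of the first to the start of the second. Cd80 (38455561 to 38496335, plus strand), Cd86 (36603869 to 36666081, minus strand) and Cd47 (49800533 to 49915010, plus strand) are all on chromosome 16. Lgals9 (78962974 to 78984946) is on chromosome 11 and Pvr (19903578 to 19921160) on chromosome 7, both on the minus strand. These are positions of GENCODE release M21 on GRCm38. The Entrez genes in the table are 60533 for Cd274, 58205 for Pdcd1lg2, 12519 for Cd80, 12524 for Cd86, 16423 for Cd47, 16859 for Lgals9 and 52118 for Pvr. Cd274, Pdcd1lg2 and Pvr overlap annotated antisense genes (AC119228.1, A930007I19Rik and Gm16251), and since the strandedness of the counting is not given in the sources used here, reads of the partners cannot be told apart.

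RefSeq promoter windows on GRCm38.p6 were found for 5 of the 7 genes. Of each, the 250 bases before the RefSeq start were searched on both strands for 5 motifs that are known binding sequences of regulators of these genes. The interferon-stimulated response element was searched as GAAA, 2 bases of any kind and GAAA, the STAT site as TTCNNNGAA, the AP-1 site as TGANTCA, the PU.1 core as GAGGAA, and the NF-kB site by its consensus. Among all 32851 windows, 2.98% held the interferon element, 7.02% the STAT site, 6.75% the AP-1 site, 23.3% the PU.1 core and 7.25% the NF-kB site. The Lgals9 window held 1 match to the interferon element, 55 to 46 bases before the start on the opposite strand, and 2 to the PU.1 core. The Cd80 window held an AP-1 match 42 to 36 bases before the start. The Pdcd1lg2 window held an NF-kB match 244 to 235 bases before the start and a PU.1 match on the opposite strand, 82 to 77 bases before it. The windows of Cd274 and Cd47 held none of these letters. They differed in CpG count, with 11 in the Cd274 window and 30 and 31 in the 2 windows of Cd47, against 3 each in the windows of Lgals9, Cd80 and Pdcd1lg2 and a median of 6 over all windows. The 3 windows with a match are shown 5′ to 3′ on the strand of the gene with the matches in capitals, at chr11:78984925-78985174 (Lgals9, minus strand), chr16:38458683-38458932 (Cd80, plus strand) and chr19:29410669-29410918 (Pdcd1lg2, plus strand). The Cd80 window lies inside a longer GENCODE transcript of the same gene. A match describes the sequence and is not evidence of binding.
Lgals9: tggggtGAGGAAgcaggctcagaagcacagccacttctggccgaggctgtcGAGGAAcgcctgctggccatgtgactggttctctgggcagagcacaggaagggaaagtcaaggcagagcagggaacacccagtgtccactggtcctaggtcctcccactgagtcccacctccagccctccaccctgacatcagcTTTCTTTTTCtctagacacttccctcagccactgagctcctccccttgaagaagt
Cd80: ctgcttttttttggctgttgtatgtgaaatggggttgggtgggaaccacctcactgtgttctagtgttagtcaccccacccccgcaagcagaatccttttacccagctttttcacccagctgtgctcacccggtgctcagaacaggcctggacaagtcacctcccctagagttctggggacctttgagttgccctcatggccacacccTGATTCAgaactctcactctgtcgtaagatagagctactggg
Pdcd1lg2: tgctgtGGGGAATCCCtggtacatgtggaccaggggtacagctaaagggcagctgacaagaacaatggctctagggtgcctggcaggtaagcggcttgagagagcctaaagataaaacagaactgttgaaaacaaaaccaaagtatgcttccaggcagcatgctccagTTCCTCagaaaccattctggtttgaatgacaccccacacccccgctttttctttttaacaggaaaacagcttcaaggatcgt

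Each library held 9001051 to 13859727 reads on genes, and 1 read stood for 0.775 to 1.17 normalized counts. All 7 blast markers (Ptprc, Itgam, Kit, Hoxa9, Hoxa10, Meis1 and Mpo) were present in every library. WT SP replicate 1 stood apart, with 88.9 normalized counts of Hoxa10 against 344 to 1222 in the other 11 libraries, and with 1624 of Itgax (CD11c) against 19.2 to 326. The blast markers did not move together in that library. Hoxa9 (798), Meis1 (516) and Kit (439) were also lowest there, Ptprc (20833) and Itgam (26293) were highest there, and Mpo (5947) was neither. The normalized counts of 7 dendritic cell markers summed to 191, 366 and 1694 at the lowest, median and highest library of WT SP and to 40.6 to 129 in WT BM, against 77.5 to 152 in Δβ SP and 53.9 to 92.4 in Δβ BM. Itgax made up most of the highest sum, while each of the other 6 markers (Zbtb46, Xcr1, Clec9a, Cd209a, Siglech and Batf3) stayed at or under 22.8. In Δβ BM replicate 1, 6 T cell markers summed to 396 normalized counts, against 15.2 and 22.8 in the other 2 libraries of that group, 7.94 to 19.1 in WT BM, 39.6 to 105 in WT SP and 21.3 to 131 in Δβ SP. In WT SP replicates 1 and 2 most of the sum was Cd2 (87.8 and 92.2). Cd3d had 9.12 and 7.42 there, and Cd3e, Cd3g and Cd8a had 0 to 2.28. In Δβ BM replicate 1 Cd2 had 33.7 and Cd8a 103. Markers of tissue macrophages summed highest in WT BM, at 6525 to 9192 against 3573 to 6078 elsewhere, sums made up mostly of Vcam1, Adgre1 and Slc40a1. Other members of that list were highest in WT SP replicate 1 instead, with 61.5 normalized counts of Mertk against at most 5.95 elsewhere, 30.8 of C1qb against at most 4.27, 14.8 of C1qa against at most 3.04 and 5.70 of C1qc against at most 2.01. Markers of B cells summed to 223 to 466 and those of endothelial and stromal cells to 783 to 2525 over all libraries. NK cell markers summed to 2.01 to 19.4 except in 1 library each of Δβ SP and Δβ BM, where the sums were higher. Erythroid RNA was near 0, with Hba-a1 and Hbb-bt under 3 reads in every library, and so was Ncr1 of the NK cell list. The part of such cells in the results was not tested.

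On a scale of normalized counts per kb of exon the 7 ligands spanned a wide range. Lgals9 had a mean of 834 and Cd47 one of 829 normalized counts per kb over the 12 libraries, both at the 95.1 percentile of genes tested. Cd274 followed with 44.1, Pvr with 41.7, Cd80 with 20.0, Cd86 with 19.3 and Pdcd1lg2 with 5.02. Between neighbors the order changed between libraries, since Lgals9 was above Cd47 in 5 of 12 libraries, Cd274 above Pvr in 4 of 12 and Cd80 above Cd86 in 7 of 12. In 12 of 12 libraries Lgals9 and Cd47 were above the other 5 ligands and Pdcd1lg2 was below the other 6. The ligands between these crossed, since Cd274 was above Cd80 in 9 of 12 libraries, with all 3 WT BM libraries the other way, and above Cd86 in 11 of 12. Pvr was above Cd80 in 11 of 12 libraries and above Cd86 in 11 of 12. The abundant ligands also varied least, as the highest library had 1.36 times the lowest for Cd47 and 1.51 times for Lgals9, against 2.05 times for Pvr, 11.9 for Cd80, 15.8 for Cd274 and 25.9 for Cd86. With WT SP replicate 1 left out these ratios were 1.36 for Cd47, 1.51 for Lgals9 and 1.90 for Pvr, and 7.27 for Cd80, 4.04 for Cd274 and 12.2 for Cd86, so that Cd80 then varied more than Cd274.

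**Figure D1:**
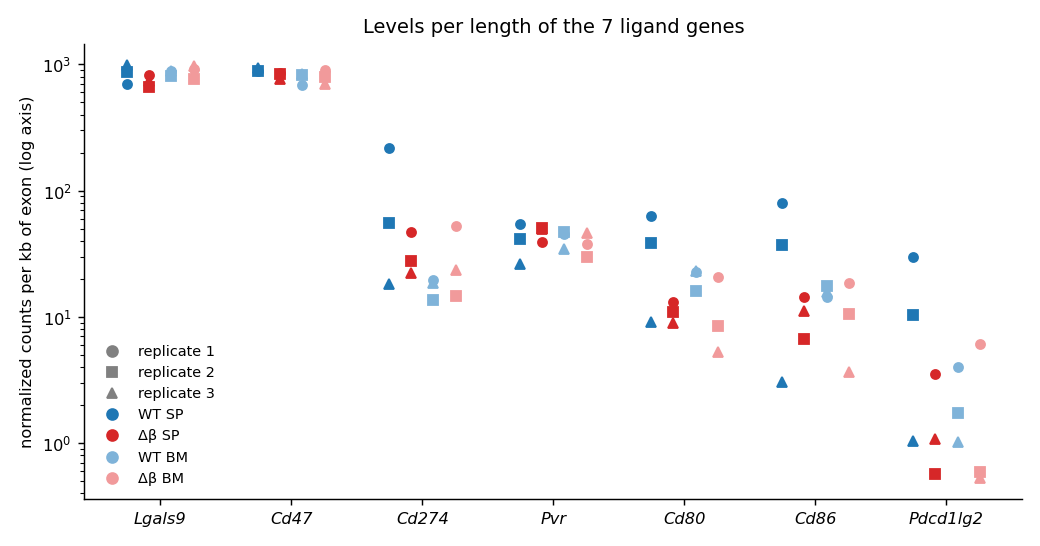
Levels of the 7 ligand genes in normalized counts per kb of exon on a log axis, 1 point per library, with color for genotype and organ and symbol for replicate number. Lgals9 and Cd47 lie at 659 to 993 per kb in all libraries, while the B7 family genes spread widely, with WT SP replicate 1 on top.

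Among the ligands of PD-1, Cd274 stood at 784, 200 and 66.0 normalized counts in replicates 1, 2 and 3 of WT SP, and at 171, 99.7 and 81.1 in those of Δβ SP. The BM replicates held 70.4, 49.6 and 67.5 in WT, and 191, 52.6 and 84.9 in Δβ. WT SP replicate 1 was 9.66 times the median of the other 11 libraries, and in each organ the genotypes overlapped. Group means were 350 ± 382 in WT SP against 117 ± 47.6 in Δβ SP, and 62.5 ± 11.3 in WT BM against 110 ± 72.6 in Δβ BM (SD, n = 3 each). Between groups the means differed by less than the SD of WT SP, so that no order of the 4 groups can be read from them.

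Pdcd1lg2 had 58.1, 20.1 and 2.03 normalized counts in the replicates of WT SP, and 6.98, 1.12 and 2.14 in those of Δβ SP. In BM it had 7.94, 3.38 and 2.01 in WT and 12, 1.17 and 1.04 in Δβ. In 6 of 12 libraries this was under 3 reads, too few to call the gene expressed, and that limit accounts for counting error alone. The mean of 9.83 was just under the minimum of 10 set for testing, so Pdcd1lg2 is described but has no test beyond the fit without a filter.

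Of the ligands of CD28 and CTLA-4, Cd80 had 235, 143 and 33.5 normalized counts in the replicates of WT SP, and 48.8, 40.3 and 33.1 in those of Δβ SP. It had 83.3, 59.7 and 85.6 in WT BM and 77.2, 31.5 and 19.7 in Δβ BM. In SP the groups overlapped only because WT SP replicate 3 lay among the Δβ values, and in BM because Δβ replicate 1 lay among the WT values. Group means of Cd80 were 137 ± 101 in WT SP against 40.7 ± 7.87 in Δβ SP, and 76.2 ± 14.3 in WT BM against 42.8 ± 30.4 in Δβ BM (SD, n = 3 each).

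Cd86 had 289, 137 and 11.2 normalized counts in the replicates of WT SP, and 52.7, 24.6 and 40.6 in those of Δβ SP. It had 52.6, 64.2 and 57.4 in WT BM and 67.4, 38.5 and 13.5 in Δβ BM. WT SP thus held both the highest and the lowest value of all 12 libraries. Group means of Cd86 were 146 ± 139 in WT SP against 39.3 ± 14.1 in Δβ SP, and 58.1 ± 5.84 in WT BM against 39.8 ± 27.0 in Δβ BM (SD, n = 3 each).

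Cd47, the signal to phagocytes, had 5592, 5587 and 5899 normalized counts in the replicates of WT SP, and 5376, 5305 and 4834 in those of Δβ SP. It had 4341, 5154 and 5267 in WT BM and 5672, 4953 and 4419 in Δβ BM. All 3 WT SP values lay above all 3 Δβ SP values and all 3 WT BM values, while the BM groups overlapped. Group means of Cd47 were 5693 ± 179 in WT SP against 5172 ± 295 in Δβ SP, and 4921 ± 505 in WT BM against 5015 ± 629 in Δβ BM (SD, n = 3 each).

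Lgals9 had 1488, 1870 and 2123 normalized counts in the replicates of WT SP, and 1757, 1408 and 1573 in those of Δβ SP. It had 1881, 1721 and 1901 in WT BM and 1966, 1637 and 2064 in Δβ BM. The groups overlapped in each comparison, and WT SP replicate 1 was the lowest of its group, opposite to its place for Cd274, Cd80 and Cd86. Group means of Lgals9 were 1827 ± 319 in WT SP against 1579 ± 175 in Δβ SP, and 1835 ± 98.6 in WT BM against 1889 ± 224 in Δβ BM (SD, n = 3 each).

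Pvr, the ligand of DNAM-1 and TIGIT, had 330, 255 and 161 normalized counts in the replicates of WT SP, and 238, 307 and 303 in those of Δβ SP. It had 277, 287 and 209 in WT BM and 232, 182 and 281 in Δβ BM. All groups overlapped. Group means of Pvr were 249 ± 84.7 in WT SP against 283 ± 38.8 in Δβ SP, and 258 ± 42.2 in WT BM against 232 ± 49.2 in Δβ BM (SD, n = 3 each).

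**Figure D2:**
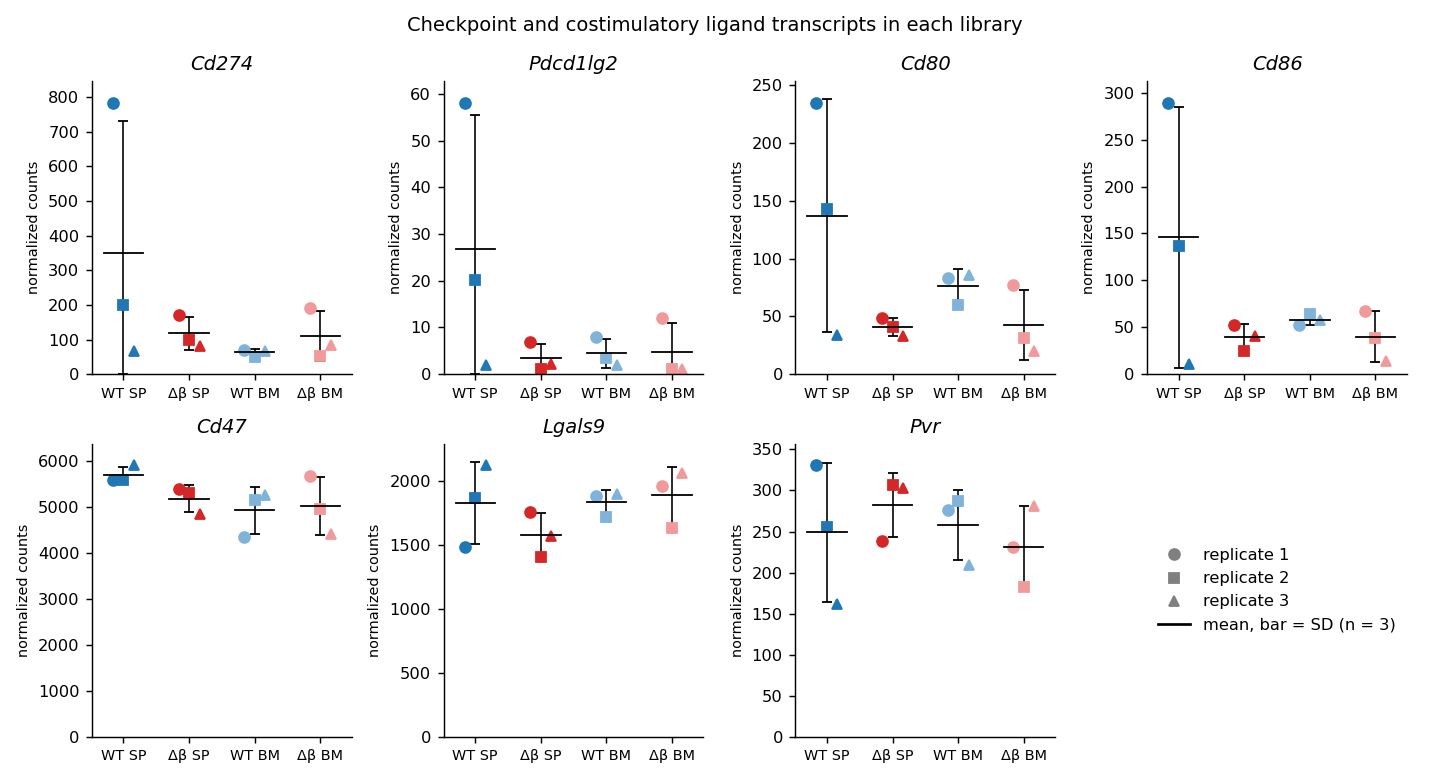
Normalized counts of each ligand gene (linear axes from 0) in the 12 libraries, 1 symbol per library by replicate number, with the mean and SD of each group (n = 3), where lower bars stop at 0. WT SP replicate 1 is the highest library for Cd274 (784), Pdcd1lg2 (58.1), Cd80 (235), Cd86 (289) and Pvr (330), while Cd47 and Lgals9 are highest in WT SP replicate 3 (5899 and 2123).

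The 4 B7 family ligands shared 1 pattern across libraries. Cd274, Pdcd1lg2, Cd80 and Cd86 were each highest in WT SP replicate 1 and second highest in WT SP replicate 2, an order found in 14.0% of genes tested. With Pvr, 5 of the 7 ligands were highest in WT SP replicate 1, against 25.8% of genes tested. WT SP replicate 3 ranked 10th for Cd274, 8th for Pdcd1lg2, 9th for Cd80 and 12th for Cd86. The range among the WT SP replicates therefore exceeded the difference between genotypes or organs for these genes. The same 2 WT SP libraries had the highest Itgax, at 1624 and 326 normalized counts, and the highest Havcr2, at 1084 and 259, while Mertk and C1qb were high in replicate 1 and not in replicate 2. Of the blast markers, Itgam (26293 and 21981) and Ptprc (20833 and 14695) had this order too, while Kit, Hoxa9, Hoxa10, Meis1 and Mpo did not. The part of these in the pattern was not tested.

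**Figure D3:**
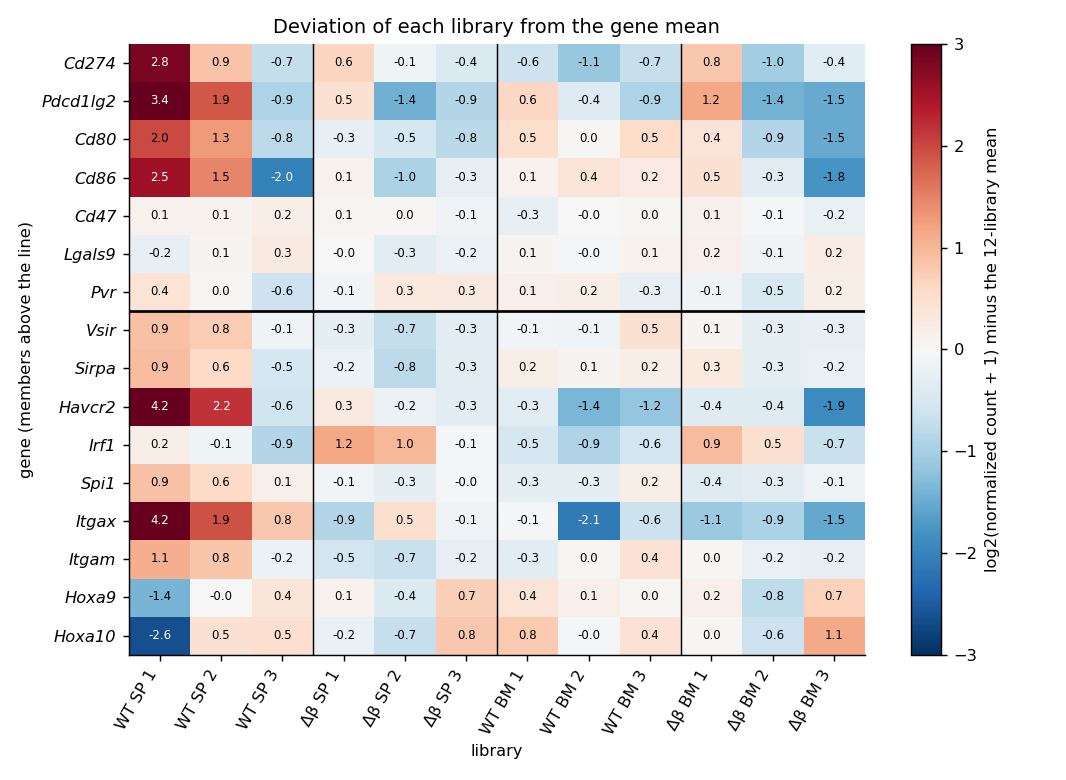
Deviation of log2(normalized count + 1) in each library from the mean over the 12 libraries, for the 7 ligands and, under the line, 9 further genes of the lists and markers. The 4 B7 family ligands, Havcr2 and Itgax are high in WT SP replicates 1 and 2, Irf1 is high in Δβ replicates 1 and 2 of both organs, and Cd47 and Lgals9 stay near their mean in all libraries.

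In SP, no ligand tested passed an adjusted p of 0.05 between Δβ and WT blasts (0 of 6 by limma with Benjamini-Hochberg adjustment, by edgeR and by DESeq2, and 0 of 6 at an unadjusted p under 0.05 in limma), against 0.105% of the 11476 genes past the adjusted threshold by limma, 0.0349% by edgeR and 3.98% by DESeq2, and 14.9% at an unadjusted p under 0.05 in limma. The estimates were lower in Δβ for 5 of the 6, with a median log2 fold change of -0.58 against -0.014 over all genes tested. The lowest p was that of Cd80, with a log2 fold change of -1.35 (standard error 0.65, 95% interval -2.78 to 0.070, adjusted p = 0.355 from limma). Cd86 had -1.03 (standard error 0.96, 95% interval -3.15 to 1.10, adjusted p = 0.596 from limma) and Cd274 had -0.96 (standard error 0.75, 95% interval -2.61 to 0.68, adjusted p = 0.521 from limma). These intervals include both no difference and falls of several fold. They were narrow for the abundant ligands, with -0.14 for Cd47 (95% interval -0.41 to 0.13, adjusted p = 0.571 from limma) and -0.20 for Lgals9 (95% interval -0.52 to 0.12, adjusted p = 0.504 from limma). Pvr had 0.23 (95% interval -0.34 to 0.81, adjusted p = 0.661 from limma). Without the filter on low genes Pdcd1lg2 had -2.05 (95% interval -4.38 to 0.27, adjusted p = 0.461 from limma). Cd47 was the only ligand whose groups did not overlap, lower in Δβ, as were 9.37% of genes tested, and an exact permutation test of 3 libraries against 3 cannot go below 0.1.

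The estimates of Cd274, Cd80 and Cd86 in SP changed with single WT libraries. Without WT SP replicate 3, Cd80 had a log2 fold change of -2.16 (adjusted p = 0.0201 from limma) and Cd86 one of -2.38 (adjusted p = 0.0265 from limma), so that 2 of 6 ligands passed, while Cd274 had -1.82 (adjusted p = 0.0688 from limma). In that fit 16.4% of all genes tested passed, and 11.7% of all genes passed with lower values in Δβ. Without WT SP replicate 1, Cd80 had -0.77 (adjusted p = 0.769 from limma), Cd86 -0.087 (adjusted p = 0.992 from limma) and Cd274 -0.045 (adjusted p = 0.994 from limma), with 0.0784% of genes past the threshold. Pvr turned from 0.23 to -0.049 without WT SP replicate 3 and had 0.47 without WT SP replicate 1, neither past the threshold. Cd47 had -0.11 and -0.15 in these fits.

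**Figure D4:**
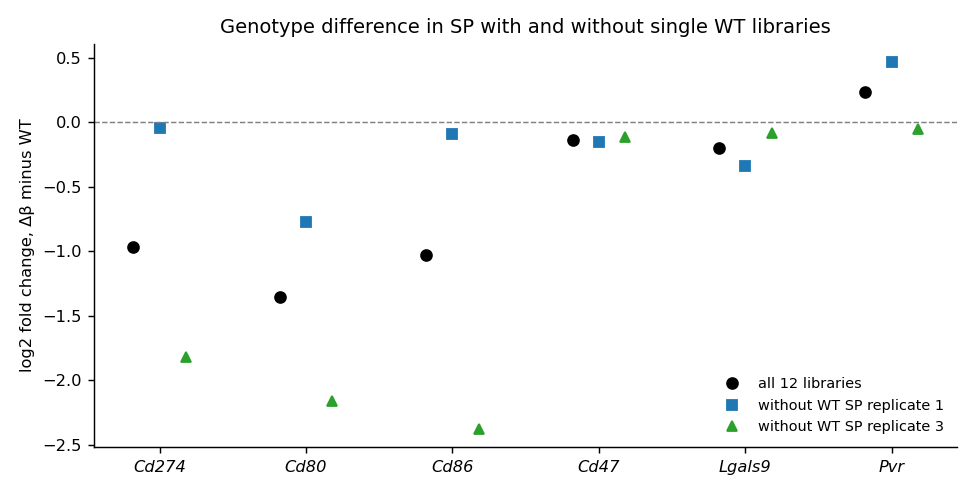
Log2 fold change of Δβ against WT in SP for the 6 ligands tested, from all 12 libraries, without WT SP replicate 1 and without WT SP replicate 3. The estimates of Cd274, Cd80 and Cd86 move between -0.045 and -2.38 with the library that is left out, while those of Cd47 stay at -0.11 to -0.15.

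In BM, 0 of 6 ligands passed an adjusted p of 0.05 by limma, edgeR or DESeq2, and 0 of 6 had an unadjusted p under 0.05 in limma, against 0.0697% of genes past the adjusted threshold by limma and by edgeR and 0.322% by DESeq2, and 2.59% at an unadjusted p under 0.05 in limma. Of the estimates, 3 were higher and 3 lower in Δβ, with a median log2 fold change of -0.069 against -0.020 over all genes tested. Cd274 had 0.61 (95% interval -1.03 to 2.26), Cd80 -1.03 (95% interval -2.45 to 0.40) and Cd86 -0.79 (95% interval -2.92 to 1.33), each with an adjusted p of 1.0 from limma. Cd47 had 0.025 (95% interval -0.25 to 0.30), Lgals9 0.036 (95% interval -0.29 to 0.36) and Pvr -0.16 (95% interval -0.74 to 0.41), with the same adjusted p of 1.0 from limma. The fit took 1 spread per gene over all 4 groups. Standard errors in BM were therefore the same as in SP (0.75 for Cd274, 0.65 for Cd80 and 0.96 for Cd86). They include the wide spread among the WT SP libraries and do not measure the spread in BM alone. Cd274, Cd80 and Cd86 were each highest within Δβ BM in replicate 1, the library with the T cell transcripts, whose part was not tested, and without it their log2 fold changes were 0.11, -1.56 and -1.30. For the difference of the genotype effect between SP and BM, 0 of 6 ligands were past the threshold by limma, edgeR or DESeq2 and 0 of 6 at an unadjusted p under 0.05 in limma, with 0% of genes past the adjusted threshold by limma and edgeR and 0.0261% by DESeq2, and 3.2% at an unadjusted p under 0.05 in limma. The interval of that difference was wide for Cd274, at -1.58 (95% interval -3.90 to 0.75, adjusted p = 0.926 from limma), and narrower for Cd47, at -0.16 (95% interval -0.55 to 0.22, adjusted p = 0.926 from limma).

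Between organs, Cd274 was the ligand with the largest estimate. In WT blasts it was higher in SP than in BM by a log2 fold change of 1.81 (standard error 0.75, 95% interval 0.16 to 3.45, unadjusted p = 0.0343 and adjusted p = 0.599 from limma), which did not pass, and 2 of 3 SP values lay above all BM values. By limma 0 of 6 ligands passed and 1 of 6 had an unadjusted p under 0.05, against 0% of genes tested past the adjusted threshold and 8.27% at an unadjusted p under 0.05. DESeq2 gave Cd274 a log2 fold change of 2.47 (adjusted p = 0.0494) and called 0.967% of genes, whereas edgeR gave 2.45 (adjusted p = 0.452) and called none. Without WT SP replicate 3 Cd274 passed (2.66, adjusted p = 0.0395 from limma, with 5.21% of genes past the threshold), and without WT SP replicate 1 it had 0.89 (adjusted p = 0.999 from limma, with 0% of genes past the threshold). The groups of Cd47 did not overlap, higher in SP, as in 5.66% of genes tested, at a log2 fold change of 0.22 (95% interval -0.055 to 0.49, adjusted p = 0.648 from limma). Cd80 had 0.47, Cd86 0.42, Lgals9 -0.020 and Pvr -0.096, with adjusted p of 0.841 to 0.974 from limma. In Δβ blasts 0 of 6 ligands passed by limma, edgeR or DESeq2, against 0% of genes tested in limma and edgeR and 0.0174% in DESeq2, and 0 of 6 had an unadjusted p under 0.05 in limma, against 1.77% of genes tested. The log2 fold changes of SP against BM in Δβ were between -0.26 (Lgals9) and 0.30 (Pvr). Equally numbered SP and BM libraries of Δβ deviated together. The main fit did not use this pairing, either here or for the difference of the genotype effect. For the organ comparisons a block for the replicate number within each genotype changed no call of a ligand. For the difference the block joined WT and Δβ libraries of equal number, so the pairing within Δβ was not fitted there. The WT SP libraries enter both the genotype comparison in SP and the organ comparison in WT, which are therefore not independent.

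**Figure D5:**
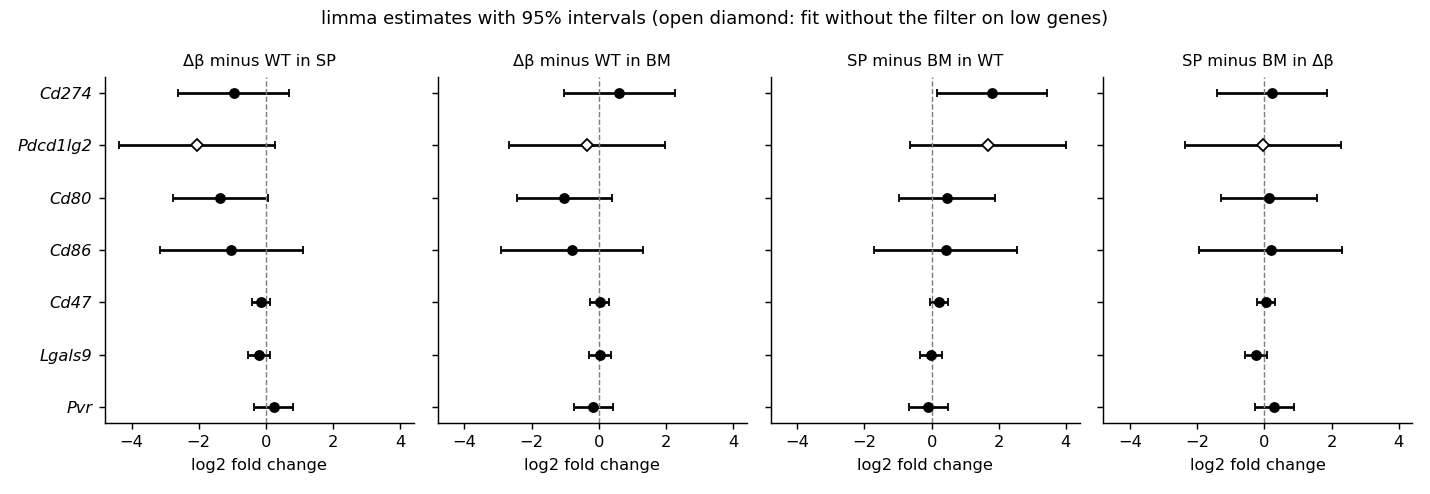
Log2 fold changes with 95% intervals from limma for the 7 ligands in the genotype comparisons in SP and BM and the organ comparisons in WT and Δβ, with Pdcd1lg2 (open diamonds) from the fit without a filter. The intervals include 0 for every ligand in every panel but 1, Cd274 in SP against BM of WT (0.16 to 3.45), and are narrowest for Cd47.

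Partners and regulators of the ligands were examined in 8 lists of 77 genes in all, of which 76 were found and 52 could be tested. By limma and by edgeR 0 of 52 passed in any of the 5 comparisons, and for Δβ against WT 10 of 52 had an unadjusted p under 0.05 in SP, against 14.9% of all genes tested, and 0 of 52 in BM, against 2.59%. For SP minus BM it was 12 of 52 in WT, against 8.27%, and 3 of 52 in Δβ, against 1.77%, and for the difference of the genotype effect 3 of 52, against 3.2%. DESeq2 called 4 of 52 in SP (Vsir, Lgals1, Havcr2 and Spi1), against 3.98% of all genes tested, 0 of 52 in BM, 1 of 52 in SP minus BM of WT (Havcr2, adjusted p = 0.00153), against 0.967%, and 0 of 52 in the other 2 comparisons. In SP 41 of the 52 estimates were lower in Δβ, and the median of all 52 was -0.26 on the log2 scale, against -0.014 over all genes tested. Without WT SP replicate 1, 32 of the 52 were lower, with a median of -0.17. List genes named below as lower in Δβ SP without overlap stand against 9.37% of all genes tested with such a separation. By limma 13 of 52 passed in SP without WT SP replicate 3, 12 of them lower in Δβ, against 16.4% of all genes tested in either direction and 11.7% lower. Without WT SP replicate 1, 0 of 52 passed, against 0.0784% of all genes, and without WT SP replicate 2, 0 of 52, against 0.0349%. In BM 0 of 52 passed without Δβ BM replicate 1, against 0.00871% of all genes.

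Among the other B7 family ligands, 2 of 5 were tested and 0 passed. Vsir (VISTA, an inhibitory ligand of myeloid cells) had 10179, 9447 and 5088 normalized counts in the replicates of WT SP, and 4573, 3373 and 4443 in those of Δβ SP. The Δβ values lay below all WT values, with a log2 fold change of -0.95 (adjusted p = 0.218 from limma, adjusted p = 0.0132 from DESeq2), and in BM it was -0.24. In SP it was -1.26 without WT SP replicate 3 (adjusted p = 0.00901 from limma) and -0.76 without WT SP replicate 1 (adjusted p = 0.473 from limma). Icosl, the ligand of ICOS, had -0.13 in SP, but 0.12 without WT SP replicate 2, and -0.24 in BM. Of 9 TNF superfamily costimulators and their receptors 4 were tested and 0 passed. In SP, Tnfsf14 (LIGHT) had 0.22 and Tnfsf9 (4-1BB ligand) -0.45, which turned to 0.21 without WT SP replicate 1. In BM Cd40 had 1.16, but 0.35 without Δβ BM replicate 1, and Tnfsf14 had -0.20.

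Of 13 nectins and ligands of NK cell receptors 7 were tested and 0 passed. Pvrl1 (nectin-1) had -2.24 in SP with a standard error of 1.59, and -0.73 without WT SP replicate 1. H2-T23, the mouse Qa-1 gene of a family with near-identical copies and so with an uncertain count, had 0.32 in SP, but -0.027 without WT SP replicate 3, and 0.45 in BM, and Ulbp1, a ligand of NKG2D, had -0.11 in BM. Of 8 partners of CD47 and other phagocytosis signals all 8 were tested and 0 passed. Sirpa, the receptor of CD47, had 10763, 8513 and 3953 normalized counts in the replicates of WT SP, and 5039, 3299 and 4538 in those of Δβ SP, so that WT SP replicates 1 and 2 were high and replicate 3 lay among the Δβ values (log2 fold change -0.75, adjusted p = 0.315 from limma). Sirpa without WT SP replicate 3 had -1.18 (adjusted p = 0.0126 from limma) and without replicate 1 -0.46 (adjusted p = 0.723 from limma). Qpctl, the enzyme that modifies CD47 for binding to SIRPα, had -0.34 in SP without overlap of the groups (adjusted p = 0.369 from limma), and its paralog Qpct had 1.12 in BM, but 0.61 without Δβ BM replicate 1. Cd24a, a signal to phagocytes, had 0.56 in BM without overlap (adjusted p = 1.0 from limma), and the share of all genes without overlap in BM is not given here.

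Of 7 other galectins 4 were tested and 0 passed. Lgals1 had 5792, 6420 and 6139 normalized counts in the replicates of WT SP, and 8175, 7864 and 9156 in those of Δβ SP, all 3 Δβ values above all WT values. The share of all genes with higher values and no overlap in Δβ SP is not given here. The log2 fold change of Lgals1, 0.46 (adjusted p = 0.190 from limma, adjusted p = 0.000473 from DESeq2), had the opposite sign to that of Lgals9, and in BM it was 0.15. In SP it was 0.46 without WT SP replicate 3 (adjusted p = 0.0335 from limma) and 0.42 without WT SP replicate 1 (adjusted p = 0.410 from limma). Lgals3 had -0.73 in SP, with -1.37 without WT SP replicate 3 (adjusted p = 0.0256 from limma) and -0.30 without WT SP replicate 1, and -0.22 in BM. Of 10 receptors of the ligands 4 were tested and 0 passed. Havcr2, which encodes the galectin-9 receptor TIM-3, had 1084, 259 and 37.5 normalized counts in the WT SP replicates, 69.0, 50.4 and 44.8 in Δβ SP, and 14.5 to 45.6 in the 6 BM libraries. It was high in WT SP replicates 1 and 2, like the B7 ligands (log2 fold change of Δβ against WT -2.01, adjusted p = 0.347 from limma, adjusted p = 0.0114 from DESeq2). Havcr2 had -3.27 without WT SP replicate 3 (adjusted p = 0.0140 from limma) and without replicate 1 -0.87 (adjusted p = 0.781 from limma). Cd44 had -0.79 in SP, with -1.24 without WT SP replicate 3 (adjusted p = 0.00869 from limma) and -0.46 without WT SP replicate 1. In BM Cd28 had 0.89 and Rgmb -0.54, each short of the threshold, and without Δβ BM replicate 1 they had 0.84 and -0.94.

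Of the regulators of PD-L1 all 15 were tested, 0 passed by limma, and 12 of the 15 estimates in SP were lower in Δβ. Their median log2 fold change in SP was -0.22, against -0.014 over all genes tested. Irf1, a transcription factor of the interferon response that activates Cd274, had 2396, 2145 and 1034 normalized counts in the Δβ SP replicates and 2072, 1499 and 681 in the Δβ BM replicates, against 564 to 1223 in the 6 WT libraries. It was high in Δβ replicates 1 and 2 of both organs, which are not independent, since equally numbered SP and BM libraries of Δβ deviated together. Its log2 fold change was 0.97 in SP (adjusted p = 0.329 from limma) and 0.92 in BM (adjusted p = 1.0 from limma). Without Δβ BM replicate 1 it was 0.57 in BM. Ifngr1, a chain of the interferon-γ receptor, had -0.56 in SP (adjusted p = 0.281 from limma) and the kinase Jak1 -0.43 (adjusted p = 0.286 from limma), both without overlap of the groups. Without WT SP replicate 3 they had -0.62 (adjusted p = 0.0928 from limma) and -0.58 (adjusted p = 0.0300 from limma), and without WT SP replicate 1 -0.36 and -0.30, neither past the threshold. Cmtm4, whose protein stabilizes PD-L1, had -0.70 in BM with overlap (adjusted p = 1.0 from limma). Of 10 regulators of CD80 and CD86, 8 were tested and 0 passed by limma. Spi1, which encodes PU.1, had 9726, 7918 and 5839 normalized counts in the replicates of WT SP, and 5011, 4348 and 5135 in those of Δβ SP, without overlap (log2 fold change -0.67, adjusted p = 0.218 from limma, adjusted p = 0.0355 from DESeq2). Spi1 without WT SP replicate 3 had -0.86 (adjusted p = 0.0150 from limma) and without replicate 1 -0.50 (adjusted p = 0.494 from limma). Relb, an NF-kB subunit, had -0.97 in SP, and March8, a ligase that removes CD86 from the surface, had -0.11 in BM.

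The genes most like each ligand across the 12 libraries were taken from all genes tested by Pearson's r on the log2 scale, as a description over libraries that share their depth and their outlying members. They were Mta3 (r = 0.97), Hpcal1 (0.95) and Wdr26 (0.95) for Cd274, Rgs2 (0.98), Rnf169 (0.98) and Pilra (0.96) for Cd80, and Rin2 (0.99), Lnpep (0.99) and Il13ra1 (0.99) for Cd86. All 9 of these genes were highest in WT SP replicate 1. Without WT SP replicates 1 and 2, r was 0.81 to 0.92 for the genes like Cd274, 0.93 to 0.96 for those like Cd80 and 0.97 to 0.99 for those like Cd86 over 10 libraries. For Cd47 they were Mmadhc (0.89), Txndc17 (0.88) and 9030624J02Rik (0.88), for Lgals9 Ston2 (0.93), Gm16576 (0.91) and Ppp6r3 (0.89), and for Pvr Dync1li2 (0.86), Ssfa2 (0.83) and Slc35d1 (0.81).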

How the data were processed

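Poly-A RNA of Venus+ MLL-AF9 blasts was sequenced in 12 libraries, with groups taken from the labels. For 24454 genes the authors deposited signal values, that is gene counts divided by a size factor of the library. The submitters' processing notes name FastQC, STAR, featureCounts and DESeq2 and the builds GRCm38 and mm10, and versions are not given in the sources used here. Within a tolerance of 0.001 all values (100%) came out as whole reads when divided by what 1 read was worth, and these reads were used for count tests. A further 6 columns that match no sample label were not used.

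Genes with a mean of at least 10 normalized counts (11476) were tested with limma 3.58.1 in R 4.3.3 (1 mean per group, eBayes with trend) on log2(normalized count + 1), so that fold changes of low genes are understated, with Benjamini-Hochberg adjustment over all genes tested. The 5 contrasts set Δβ against WT within each organ and SP against BM within each genotype, and tested the difference of the genotype effect between organs. Intervals are limma's 95% intervals, and levels per kb used the union of GENCODE M21 exons. Alternatives were pseudocounts of 0.25 and 4, no filter, a minimum mean of 50, TMM rescaling, edgeR 4.0.16 (quasi-likelihood) and DESeq2 1.42.0 on the recovered reads, a block for the replicate number, and each library left out in turn, which for genes of the lists was chosen after seeing the data. The fits were first tested on simulated data with known changes. Those data held no outlying library and no paired libraries, so they do not show how the fits behave with either.

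The 7 genes, the lists and the markers were chosen with earlier results of these data known. Named genes are the 7 ligands, of each list any gene past the threshold and otherwise the 2 with the smallest unadjusted p in each genotype contrast, and for each ligand tested the 3 genes with the highest Pearson r. Markers and other genes given by library were named to describe libraries after their values were seen. The labels do not say that equal replicate numbers belong together. Deviations from the group means of equally numbered SP and BM libraries correlated at r = 0.66, 0.61 and 0.63 in Δβ, which pairs them there, but at -0.01, -0.04 and -0.24 in WT. Results for some genes of the lists are not reported here. Precision is limited by the spread between libraries for all 7 ligands, and for Pdcd1lg2 (1 to 51 reads per library) by depth as well. Pdcd1lg2 had 51, 19 and 2 reads in WT SP replicates 1, 2 and 3.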

Additional observations from a re-analysis of the deposited data

How the results depend on the processing

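Of 600 estimates of the 6 ligands under the alternatives, 572 kept their direction and their side of the threshold, 4 passed it and 24 turned. The cause was not tested. Many of the 600 could not turn, because the gene filters, the block and a left-out library outside the comparison leave the estimate itself unchanged. The count of 572 therefore overstates how stable the estimates were. The number of ligands past the threshold stayed at 0 of 6 except by DESeq2 in SP minus BM of WT (1, Cd274) and with libraries left out, which gave 0 to 2 for Δβ against WT in SP and 0 to 1 for SP minus BM in WT. The number of genes past the threshold moved far more. For Δβ against WT in SP it was 12, but 1 with a pseudocount of 0.25, 5 with no filter, 2 with a minimum mean of 50, 3 with TMM, 4 by edgeR and 457 by DESeq2, and 1 to 1884 with libraries left out, highest without WT SP replicate 3. In BM it was 8, but 37 by DESeq2 and 1 to 13 with libraries left out. For SP minus BM in WT it was 0, but 111 by DESeq2 and 0 to 598 with libraries left out, again highest without WT SP replicate 3. For SP minus BM in Δβ DESeq2 called 2, and for the difference of the genotype effect 3. Of the turned estimates, those by another tool were Cd80 in SP minus BM of Δβ, at -0.054 by edgeR and -0.043 by DESeq2 against 0.14. The others came from a left-out library. For Δβ against WT, Pvr in SP ranged from -0.049 to 0.47, Cd47 in BM from -0.068 to 0.11 and Lgals9 in BM from -0.031 to 0.14. For SP minus BM in WT, Cd80 ranged from -0.11 to 1.27, Cd86 from -0.52 to 1.76, Lgals9 from -0.14 to 0.12 and Pvr from -0.33 to 0.19. For SP minus BM in Δβ, Cd274 ranged from -0.19 to 0.73, Cd80 from -0.29 to 0.67, Cd86 from -0.43 to 0.69 and Cd47 from -0.037 to 0.14. For the difference of the genotype effect, Cd80 ranged from -1.13 to 0.25 and Cd86 from -1.58 to 0.71.

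With a block for the replicate number across genotypes, the number of genes past the threshold was 2 in SP and 5 in BM. This block changed no call of a ligand. Libraries of WT and Δβ with the same number did not deviate together (r = 0.20, -0.17 and -0.01 in SP and 0.13, -0.08 and -0.09 in BM), so that there they share only a number. The limma fits pooled the spread over all groups, also where 1 library was left out of a group.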
